A study of Mus musculus with 5 samples.

Results

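A set of 10 genes that switch off or dampen mitogen-activated protein (MAP) kinase signalling was examined in regulatory T cells (Tregs) of neonatal mice: the 8 dual-specificity phosphatase genes Dusp1, Dusp2, Dusp4, Dusp5, Dusp6, Dusp7, Dusp10 and Dusp16, and the 2 Sprouty genes Spry1 and Spry2. They were taken by gene symbol, and all 10 are among the 24084 genes of the count table. Tregs are CD4 T cells that depend on the transcription factor Foxp3 and hold immune responses in check. They were sorted from the skin (2 libraries) and from the lymph nodes draining it (3 libraries) of mice aged 13 days and sequenced as bulk messenger RNA. All 5 libraries come from the Foxp3-DTR/GFP strain, whose name stands for a toxin receptor and a green reporter under control of Foxp3, and no treatment is named for either group. How many animals gave a library, and which markers were sorted on, is not stated in the sources used here. The p-values below therefore reflect how much these libraries differ, and that spread may be technical.

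ERK, JNK and p38 are the 3 main MAP kinase branches, and in T cells they carry signals from the antigen receptor, co-stimulation, cytokines and stress to the nucleus. Dual-specificity phosphatases remove the activating phosphates from these kinases, and many of their genes are themselves induced by the pathway, which makes them part of a negative feedback loop. Sprouty proteins act higher up and restrain the step from growth factor and antigen receptors through Ras to ERK.

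The skin libraries held 10468795 and 10787378 gene counts over 9192 and 9894 detected genes, and the lymph node libraries held 12305644 to 14595018 gene counts over 12173 to 12540 genes. Foxp3 stood at 77.8 and 117 CPM (gene counts scaled to a common library size) in skin Tregs and at 89.4, 94.8 and 99.6 CPM in lymph node Tregs, so both groups carried the defining marker of the labelled cell type. Across genes, which are not independent replicates, log2 CPM correlated between the 2 skin libraries at r = 0.615 and among the 3 lymph node libraries at 0.899 to 0.909. Between the sources r was 0.571 to 0.622, so skin library 1 was as close to the lymph node libraries (0.614 to 0.622) as to skin library 2. Summed over the 16 myeloid markers in the table, the level was 1686 and 2620 CPM in the skin libraries against 14.6 to 30.6 CPM in the lymph node libraries, and Cd163, Pf4 and Clec10a among them were at 0 in every lymph node library. The 7 B cell markers in the table summed to 22.0 and 72.1 CPM in skin against 80.1 to 216 CPM in lymph node. The skin sum was Cd79b alone, which had 61.6 to 120 CPM in lymph node, so its groups overlapped. Of the others, all without a count in skin, Cd79a had 5.68 to 24.8 and Ms4a1 4.49 to 38.8 CPM in lymph node. The 10 markers of CD8 T cells and natural killer cells summed to 477 and 797 CPM in skin against 150 to 241 CPM in lymph node. Most of the skin sum was Nkg7, with 454 and 696 CPM in skin against 98.1 to 170 CPM in lymph node. Prf1 had 0 and 101 CPM in skin against 7.12 to 14.2 CPM in lymph node. Of the 10, 7 had no count in either skin library and 4 had none in any lymph node library. Cd8a, without a count in skin, had 7.22 to 22.8 CPM in lymph node. In bulk libraries, a shift in the number of cells of a type and a shift in RNA per cell cannot be told apart.

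By GENCODE M21 the genes lie on 10 different chromosomes of mm10: Dusp1 at chr17:26505590-26562128, Dusp2 at chr2:127336159-127338376, Dusp4 at chr8:34807297-34819894, Dusp5 at chr19:53529109-53542431, Dusp6 at chr10:99263231-99267489, Dusp7 at chr9:106368632-106375724, Dusp10 at chr1:184013302-184075636, Dusp16 at chr6:134715468-134792625, Spry1 at chr3:37639947-37644598 and Spry2 at chr14:105891947-105896819.

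Promoter windows of 9 of the 10 genes were found in the RefSeq table for build GRCm38.p6, from 250 bases before to 50 bases after the annotated start. The windows of 4 genes are shown because they belong to the genes on which the results turn, or carry a motif that sets them apart: Dusp1 and Spry1, whose difference passed the test, Dusp6, the most abundant member in lymph node Tregs, and Dusp5. Capitals mark matches on either strand to the cAMP response element (CRE, TGACGTCA, or its core TGACG, which the full element contains on both strands) and to the CArG box bound by serum response factor. In mm10 coordinates, the same build as GRCm38, the windows lie at chr17:26508423-26508722 on the minus strand (Dusp1), chr19:53528895-53529194 on the plus strand (Dusp5), chr10:99262981-99263280 on the plus strand (Dusp6) and chr3:37639697-37639996 on the plus strand (Spry1).
Dusp1: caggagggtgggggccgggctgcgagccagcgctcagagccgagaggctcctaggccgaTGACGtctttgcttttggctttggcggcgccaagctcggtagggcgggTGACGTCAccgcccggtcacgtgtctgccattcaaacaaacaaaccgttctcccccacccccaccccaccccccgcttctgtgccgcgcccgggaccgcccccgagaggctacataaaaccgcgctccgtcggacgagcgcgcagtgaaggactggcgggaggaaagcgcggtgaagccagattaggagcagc
Dusp5: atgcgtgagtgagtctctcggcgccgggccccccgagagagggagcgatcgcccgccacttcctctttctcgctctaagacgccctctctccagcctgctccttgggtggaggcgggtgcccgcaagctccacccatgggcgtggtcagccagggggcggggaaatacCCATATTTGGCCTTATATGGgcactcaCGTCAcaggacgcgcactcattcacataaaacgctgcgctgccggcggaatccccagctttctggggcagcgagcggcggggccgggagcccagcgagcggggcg
Dusp6: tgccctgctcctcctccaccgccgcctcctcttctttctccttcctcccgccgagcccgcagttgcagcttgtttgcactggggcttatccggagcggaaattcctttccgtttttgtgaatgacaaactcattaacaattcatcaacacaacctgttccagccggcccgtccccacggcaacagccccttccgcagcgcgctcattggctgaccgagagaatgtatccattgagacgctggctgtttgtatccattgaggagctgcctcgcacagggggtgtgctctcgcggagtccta
Spry1: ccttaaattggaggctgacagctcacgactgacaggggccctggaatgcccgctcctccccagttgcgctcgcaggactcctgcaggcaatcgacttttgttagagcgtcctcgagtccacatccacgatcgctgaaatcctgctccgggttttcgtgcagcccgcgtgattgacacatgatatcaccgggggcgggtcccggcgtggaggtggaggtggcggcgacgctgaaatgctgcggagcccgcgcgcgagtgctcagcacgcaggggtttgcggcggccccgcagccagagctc

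The Dusp1 window held 1 full CRE and 3 cores, counting the 2 within the full element. Of 32851 promoter windows of the same length, 1.79% held the full CRE and 20.8% a core. The Dusp5 window held 2 CArG boxes side by side, an element found in 1.63% of all windows, and 1 CRE core. The windows of Dusp2 and Dusp16 each held 1 CRE core and no full one. No match to the CRE, its core, the CArG box, the ETS core CCGGAA (14.9% of windows) or the TATA box TATAAA (13.6%) was present in the windows of Dusp6, Dusp7, Dusp10 and Spry1, and that of Spry2 held 1 ETS core. These matches describe the letters of the windows only.

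Dusp1 was the member that rose in skin Tregs. Its product is a nuclear phosphatase that acts on p38, JNK and ERK and is a classical immediate early gene product. Dusp1 had 147 and 361 CPM in the skin libraries, against 7.71, 10.2 and 9.08 CPM in the lymph node libraries, which are 1570 and 3627 against 110, 130 and 134 counts. Both skin values lay far above all 3 lymph node values, and skin library 2 was the higher of the pair. The mean was 254 ± 152 CPM in skin (SD, n = 2) and 8.99 ± 1.23 CPM in lymph node (SD, n = 3), a log2 fold change of 4.82 (SE 0.52; edgeR quasi-likelihood test, adjusted p = 0.0271). The call held without either skin library (adjusted p = 0.000102 without skin library 1 and 0.000388 without skin library 2, each with the lone skin library assumed to vary like the lymph node ones) and was lost without any 1 lymph node library (0.113 to 0.115), in fits where edgeR called 0 genes of all tested. It held in DESeq2 (2.25e-12) and missed the threshold in limma-voom (0.0572). In edgeR with the replicate number as a block it was lost (0.166).

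Dusp1 moved with other genes in the same libraries. The skin library with more Dusp1 also had the higher sum of myeloid markers (2620 against 1686 CPM in skin library 1), and macrophages and keratinocytes are known to express Dusp1 too. Mrc1, Itgam and Cd14 of that list went the other way. They had 361, 109 and 21.9 CPM in skin library 1 against 137, 0 and 0 CPM in skin library 2. Keratinocyte markers summed to 208 and 289 CPM in skin against 19.3 to 26.0 CPM in lymph node. Of the 8 tested ones, 5 lay higher in both skin libraries than in any lymph node library (16.8% of all tested genes). The 2 that lay lower (33.5% of all tested genes) were Krt10 and Cdh1, with no count in skin. In a list of 27 genes that tissue dissociation is known to induce, 5 passed as higher and 1 as lower and 21 did not pass, where edgeR called 2.4% of all tested genes higher and 5.3% lower. The summed level of this list was 7685 and 7771 CPM in skin against 4965 to 5502 CPM in lymph node. The part of other cells and of dissociation in the Dusp1 difference was not tested.

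**Figure D1:**
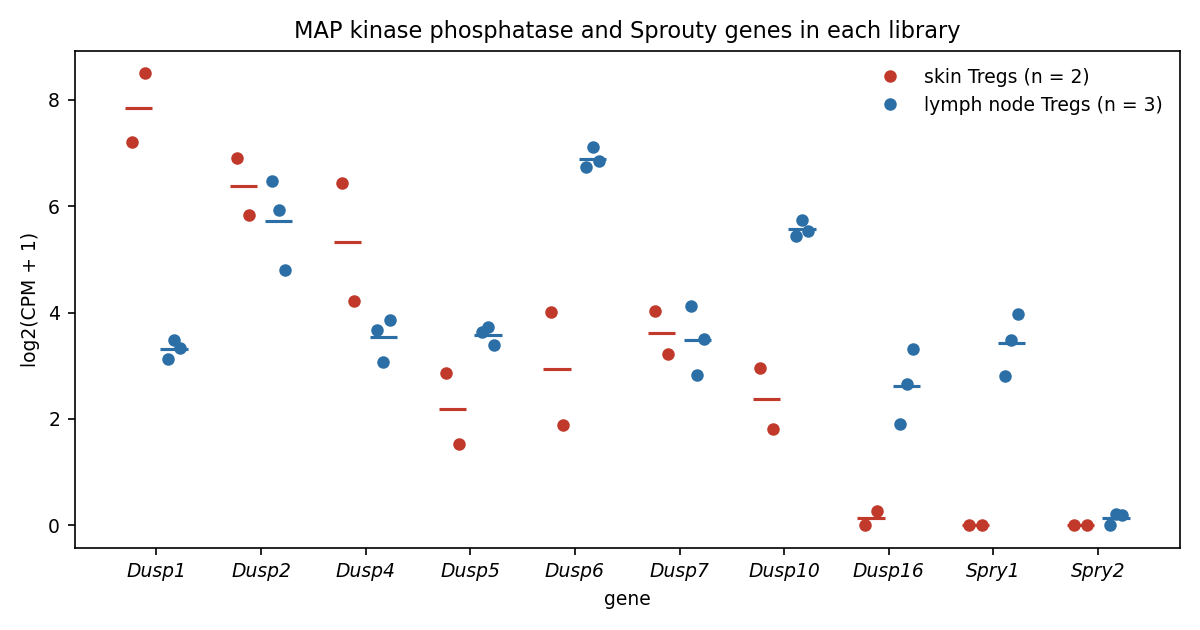
Level of each of the 10 genes in every library on a log2(CPM + 1) scale, with skin Tregs (red, n = 2) left of lymph node Tregs (blue, n = 3) and short lines at the group means. Dusp1 and Dusp4 lie higher in both skin libraries than in any lymph node library, Dusp5, Dusp6, Dusp10, Dusp16 and Spry1 lie lower in both, and Dusp2, Dusp7 and Spry2 overlap.

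The other inducible nuclear phosphatases did not pass the threshold. Dusp4 encodes a nuclear relative of Dusp1. It had 85.4 and 17.6 CPM in the skin libraries, against 11.7, 7.43 and 13.6 CPM in the lymph node libraries. The groups did not overlap, but skin library 2 lay close to the lymph node range and skin library 1 far above it (log2 fold change 2.24, SE 0.90, adjusted p = 0.173 by edgeR). Without skin library 1 the log2 fold change was 0.69 (adjusted p = 0.353), and without skin library 2 it was 2.96 (adjusted p = 0.00224), so the size of the difference rests on skin library 1.

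Dusp2, a nuclear phosphatase found in activated lymphocytes, was abundant in both sources. It had 120 and 56.1 CPM in skin Tregs, against 87.5, 59.8 and 26.8 CPM in lymph node Tregs. The ranges overlapped, with more than a 3-fold spread among the lymph node libraries alone (log2 fold change 0.60, SE 0.67, adjusted p = 0.625 by edgeR). Dusp5, which encodes a nuclear phosphatase that acts on ERK alone, had 6.26 and 1.89 CPM in skin, against 11.4, 12.3 and 9.42 CPM in lymph node. Both skin values lay below the lymph node values, but the difference did not exceed the spread (log2 fold change -1.44, SE 0.99, adjusted p = 0.412). The log2 fold change was -2.54 without skin library 1 and -0.82 without skin library 2. Dusp5 did not pass in DESeq2 or limma-voom (adjusted p = 0.178 and 0.305). An antisense RNA gene covers 22.1% of the annotated exon bases of Dusp5, and no source used here says whether reads were counted by strand.

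The cytoplasmic ERK phosphatases Dusp6 and Dusp7 differed from each other. Dusp6, whose product is induced by ERK signalling and dephosphorylates ERK in the cytoplasm, had 15.1 and 2.69 CPM in skin Tregs, against 105, 137 and 115 CPM in lymph node Tregs. Its skin mean was 8.91 ± 8.79 CPM and its lymph node mean 119 ± 16.5 CPM. Every skin value was below every lymph node value, and the difference was just short of the threshold (log2 fold change -3.74, SE 0.89, adjusted p = 0.0578 by edgeR). The log2 fold change was -5.47 without skin library 1 and -2.98 without skin library 2. Dusp6 passed in DESeq2 and limma-voom (adjusted p = 0.000187 and 0.0453). In edgeR it did not pass with other scalings or filters (adjusted p = 0.0514 to 0.0754) or with the replicate number as a block (0.564). Dropping lymph node library 1, 2 or 3 gave an edgeR adjusted p of 0.137, 0.157 and 0.146.

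Dusp7, which encodes the close relative of Dusp6 in the cytoplasm, had 15.4 and 8.27 CPM in skin, against 16.3, 6.10 and 10.4 CPM in lymph node. The groups overlapped (log2 fold change 0.11, SE 0.91, adjusted p = 0.954), and the sign turned under upper-quartile scaling (-0.02), without skin library 1 (-0.41) and without lymph node library 2 (-0.16).

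The 2 phosphatases that act mainly on JNK and p38 were low in skin Tregs without passing the threshold. Dusp10 had 6.72 and 2.49 CPM in skin libraries, against 42.4, 52.6 and 45.1 CPM in lymph node libraries. The 3 lymph node values were close together and both skin values were far below them (log2 fold change -3.34, SE 0.84, adjusted p = 0.0641 by edgeR). The log2 fold change was -4.23 without skin library 1 and -2.80 without skin library 2. Like Dusp6, Dusp10 passed in DESeq2 (adjusted p = 2.43e-06) and in limma-voom (0.0471). In edgeR it did not pass with other scalings or filters (adjusted p = 0.06 to 0.0932) or with the replicate number as a block (0.712). Dropping lymph node library 1, 2 or 3 gave an edgeR adjusted p of 0.193, 0.221 and 0.227. Of 3720 tested genes within 2-fold of the lymph node level of Dusp10, 355 (9.54%) had a ratio of means at least as low.

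Dusp16 was nearly absent from skin. It had 0 and 2 counts in the skin libraries, against 39, 68 and 133 counts in the lymph node libraries, or 0 and 0.199 against 2.73, 5.32 and 9.02 CPM. The pooled lymph node level was 59.5-fold the skin level, with an exact 95% counting interval of 16.3 to 495 (edgeR adjusted p = 0.0946). The log2 fold change was -4.77 without skin library 1 and -9.23 without skin library 2, where the lone skin count was 0. Dusp16 passed in DESeq2 (adjusted p = 0.000962) and in limma-voom (0.0330). In edgeR it did not pass with other scalings or filters (adjusted p = 0.0761 to 0.153) or with the replicate number as a block (0.729). Dropping lymph node library 1, 2 or 3 gave an edgeR adjusted p of 0.166, 0.194 and 0.184. Ratios this low were common at this level. Of 2091 tested genes within 2-fold of the lymph node level of Dusp16, 652 (31.2%) had a ratio of means at least as low.

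Spry1 was the member that fell. Its product inhibits signalling from growth factor and antigen receptors to Ras and ERK. It had no count in either skin library, against 86, 130 and 217 counts in the lymph node libraries (6.03, 10.2 and 14.7 CPM; mean 10.3 ± 4.34 CPM, n = 3). A count of 0 over both skin libraries allows up to 3 counts, or 0.145 CPM, so Spry1 was at least 71.6-fold lower in the skin libraries (edgeR adjusted p = 0.0494). This p lies close to the threshold. The call was lost in edgeR without any 1 lymph node library (adjusted p = 0.113 to 0.116). It was also lost without a low-count filter (0.0686) and with the replicate number as a block (0.712). It held in DESeq2 (1.85e-06) and limma-voom (0.00675). Both skin values being 0, the skin group has no spread to measure, and of 2630 tested genes within 2-fold of the lymph node level of Spry1, 409 (15.6%) had no count in either skin library. A gene model of unknown coding status (Gm42922) on the other strand covers 24.4% of the annotated exon bases of Spry1. The part of other cells of the lymph node libraries in the Spry1 difference was not tested.

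Spry2, the second Sprouty gene, was at the edge of detection. It had no count in skin and 0, 2 and 2 counts in the lymph node libraries, did not pass the low-count filter and was not tested. The pooled lymph node level of 0.0957 CPM is below the 0.145 CPM that the skin depth could have missed, so no difference was detectable at this depth.

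Of the 10 genes, 9 passed the low-count filter, which a gene can pass through the group where it is high. Among these 9, 1 was higher in skin (Dusp1) and 1 was lower (Spry1), where edgeR called 2.4% of all tested genes higher and 5.3% lower (7.7% in all). The 9 genes had a median log2 fold change of -1.44, also with Spry1 set at its bound, against -0.21 over all tested genes. Groups did not overlap for 7 of the 9 genes, with skin above in 2 (16.8% of all tested genes) and below in 5 (33.5% of all tested genes). DESeq2 called 2 members higher (Dusp1 and Dusp4) and 4 lower (Dusp6, Dusp10, Dusp16 and Spry1), where it called 9.23% of its tested genes higher and 16.3% lower. With limma-voom 0 members were higher and 4 lower (Dusp6, Dusp10, Dusp16 and Spry1), against 4.95% and 14.6% of all genes. An unadjusted limma-voom p under 0.05 was found for 5 members, and for 3801 of all 11437 tested genes. Without skin library 1, edgeR called 1 member higher and 5 lower, against 16.9% and 31.8% of all genes, and without skin library 2 it called 2 higher and 4 lower, against 14.4% and 24.8%. Calls made with 1 skin library were thus common among all genes.

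**Figure D2:**
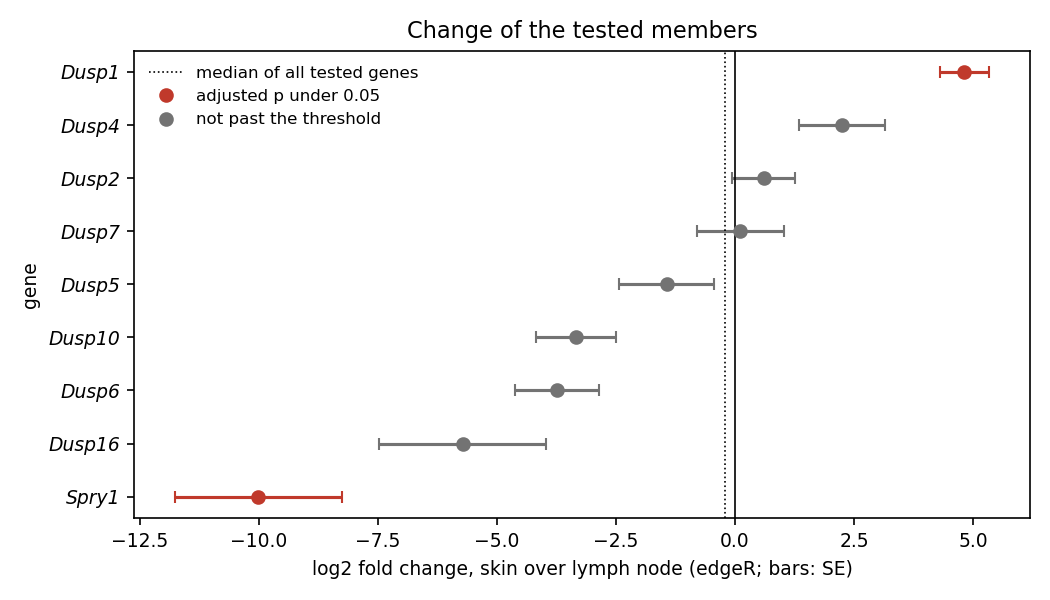
Log2 fold change of the 9 tested genes, skin over lymph node, with SE as bars. Dusp1 (4.82) and Spry1 are the genes with an adjusted p under 0.05 in edgeR; the fitted value of Spry1 depends on the prior count because both skin libraries are at 0, and the dotted line at -0.21 is the median of all tested genes.

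Ratios of 2 genes within a library do not depend on how libraries are scaled. The count ratio of Dusp1 to Dusp6 was 9.69 and 134 in the skin libraries, against 0.0732, 0.0740 and 0.0793 in the lymph node libraries. The ratio was below 1 in all 3 lymph node libraries, which lay within a narrow range, and above 1 in both skin libraries, which differed from each other by over 10-fold. The ratio of Dusp4 to Dusp6 was 5.65 and 6.56 in skin and 0.111, 0.0541 and 0.118 in lymph node. Here the skin libraries were close together, although each of the genes alone differed between them by over 4-fold. Dusp4 exceeded Dusp5 by 13.7 and 9.32 to 1 in skin, against 1.02, 0.605 and 1.44 to 1 in lymph node. Each of the 6 ratios computed had a two-sided exact permutation p of 0.1 (0.1 also after adjustment over the 6), the smallest that 2 against 3 libraries can give, so these ratios are a description.

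Per kilobase of annotated exon, the order of the members differed between the sources. In skin Tregs the highest mean level was that of Dusp1 (76.7 ± 45.9 CPM per kb), followed by Dusp2 (43.9 ± 22.4), Dusp4 (18.8 ± 17.5), Dusp7 (3.53 ± 1.504), Dusp6 (2.84 ± 2.81), Dusp5 (1.65 ± 1.25) and Dusp10 (1.51 ± 0.984). Neighbours in this order overlapped, except that both values of Dusp4 were above both of Dusp7, and Dusp2 stood above Dusp1 in skin library 1 (59.7 against 44.3 CPM per kb). In lymph node Tregs the highest was Dusp6 (38.02 ± 5.28 CPM per kb), followed by Dusp2 (29.0 ± 15.2), Dusp10 (15.4 ± 1.75), Dusp5 (4.46 ± 0.593), Dusp4 (3.98 ± 1.15), Spry1 (3.54 ± 1.49), Dusp7 (3.26 ± 1.53), Dusp1 (2.71 ± 0.372) and Dusp16 (0.730 ± 0.405). Neighbours overlapped here too, except that Dusp10 lay wholly above Dusp5 and Dusp1 wholly above Dusp16.

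The summed level of the 10 genes was 149 CPM per kb in both skin libraries and 85.6 to 110 CPM per kb in the lymph node libraries, while its make-up differed more. The phosphatases that act on ERK alone (Dusp5, Dusp6 and Dusp7) made up 8.002 and 2.75% of the sum in skin, against 39.3, 47.0 and 50.8% in lymph node. Most of this was Dusp6, with 3.23 and 0.578% in skin against 30.6, 40.7 and 42.7% in lymph node. The mean level of Dusp7 was similar, at 3.53 CPM per kb in skin and 3.26 in lymph node. The inducible nuclear phosphatases (Dusp1, Dusp2, Dusp4 and Dusp5) made up 92.2 and 97.2% in skin, against 50.02, 37.6 and 29.0% in lymph node. Dusp1 alone took 29.6 and 73.5% in the skin libraries, against 2.12, 2.85 and 3.20% in the lymph node libraries.

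**Figure D3:**
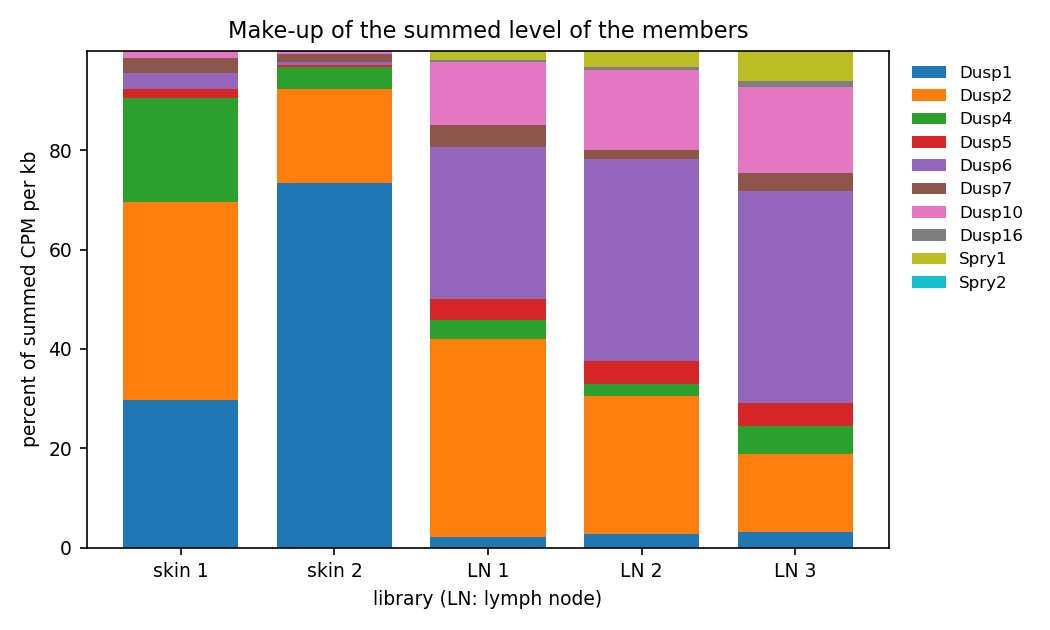
Share of each gene in the summed level of the 10 genes (percent of summed CPM per kb of exon) in each library, skin at the left and lymph node (LN) at the right. Dusp1, Dusp2 and Dusp4 fill most of both skin bars, and Dusp6, Dusp2 and Dusp10 most of the lymph node bars; Dusp1 takes 29.6% of skin library 1 and 73.5% of skin library 2.

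Among other feedback inhibitors of the pathway, few genes passed the test. In a list of 20 genes, 15 were tested, of which 1 was higher, 1 lower and 13 not past the threshold (median log2 fold change 0.68), where 2.4% of all tested genes were higher and 5.3% lower. Dusp22, which encodes a small phosphatase that acts on the T cell kinase Lck, rose to 68.4 and 132 CPM in skin Tregs, against 13.5, 7.27 and 12.3 CPM in lymph node Tregs (log2 fold change 3.18, SE 0.63, adjusted p = 0.0489 by edgeR). Dok1, an adaptor that recruits a Ras inhibitor, had no count in skin against 14.9, 19.5 and 22.2 CPM in lymph node, at least 131-fold lower in skin (adjusted p = 0.0455). Both lie close to the threshold. The next 3 relatives of the members fall outside the naming rule and were picked with their values in view. Dusp3, another small phosphatase of ERK and JNK, had 79.5 and 147 CPM in skin, against 3.50, 0 and 0.0678 CPM in lymph node (adjusted p = 0.113). The Sprouty-related inhibitor genes Spred1 and Spred2 lay below 1 CPM in both skin libraries, against 6.17 to 13.4 and 1.76 to 3.83 CPM in lymph node (adjusted p = 0.0951 and 0.0805).

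In the relay from Ras to ERK no gene passed in edgeR. Of 21 tested genes in this list, 0 were called in either direction (median log2 fold change 0.21). Of all tested genes, edgeR called 2.4% higher and 5.3% lower. An unadjusted edgeR p under 0.05 was found for 6 of the 21, and for 3372 of all 11437 tested genes. DESeq2 called 4 higher and 1 lower, where it called 9.23% of all its tested genes higher and 16.3% lower. With limma-voom 3 were higher and 1 lower, against 4.95% and 14.6% of all genes. Its most abundant genes were Lat, the adaptor that couples the antigen receptor to Ras, with 362 and 420 CPM in skin against 674, 518 and 548 CPM in lymph node (adjusted p = 0.154), and Nras, which encodes a Ras GTPase, with 685 and 349 CPM in skin against 416, 429 and 497 CPM in lymph node (adjusted p = 0.739). Of the 21 genes, 8 (38.1%) had 5 CPM or more in skin library 1 and under 2 CPM in skin library 2. This held for 14.2% of all tested genes. The opposite pattern was shown by 0 of the 21 (7.5% of all tested genes). These limits of 5 and 2 CPM were set with the data in view. The first pattern was not confined to this list. It was shown by 5 of 21 tested genes in the relay to JNK and p38 and by 4 of 21 ERK output genes. In each of those lists 1 gene showed the opposite pattern. The first pattern was shown by 1 of 9 members and 1 of 15 other feedback inhibitors, and the opposite by 0 and 1. Braf, which encodes the kinase above MEK and was chosen after its values were seen, had 192 and 1.295 CPM in the skin libraries and 57.6 to 140 CPM in the lymph node libraries.

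In the relay to JNK and p38, 2 of 21 tested genes rose, 1 fell and 18 did not pass (median log2 fold change -0.30), against 2.4% of all tested genes higher and 5.3% lower. Map2k3, which encodes a kinase that activates p38, rose to 127 and 308 CPM in skin Tregs, against 32.9, 24.1 and 21.4 CPM in lymph node Tregs (log2 fold change 3.06, SE 0.50, adjusted p = 0.0452). Gadd45b, a stress-induced partner of upstream kinases of p38 and JNK, rose to 192 and 98.3 CPM in skin, against 13.0, 20.9 and 9.56 CPM in lymph node (log2 fold change 3.33, SE 0.59, adjusted p = 0.0460). Mapk12, which encodes a p38 isoform, had no count in skin against 9.39, 6.57 and 6.10 CPM in lymph node, at least 50.9-fold lower in skin (adjusted p = 0.0491).

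Among genes that ERK signalling is known to induce or that carry its output, 1 of 21 tested was higher, 1 lower and 19 not past the threshold (median log2 fold change 1.05), again beside 2.4% and 5.3% of all tested genes. Fos, an immediate early gene that encodes an AP-1 subunit, rose to 499 and 626 CPM in skin, against 6.10, 12.8 and 23.0 CPM in lymph node (log2 fold change 5.33, SE 0.62, adjusted p = 0.0308). Egr1, another immediate early gene, fell to 5.79 and 6.38 CPM in skin, against 74.1 to 116 CPM in lymph node (log2 fold change -3.99, SE 0.56, adjusted p = 0.0405). Fos thus lay on the side of Dusp1 and Egr1 on the side of Dusp6. Both genes are also in the dissociation list, in which Nr4a1 and Klf6 rose (log2 fold changes 2.32 and 2.15, adjusted p = 0.0299 and 0.0381). The part of the myeloid transcripts, 1686 and 2620 CPM in the skin libraries against 14.6 to 30.6 CPM in the lymph node libraries, in the calls of these lists was not tested. As for the members, each fit that lacked 1 lymph node library made no call in any list.

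**Figure D4:**
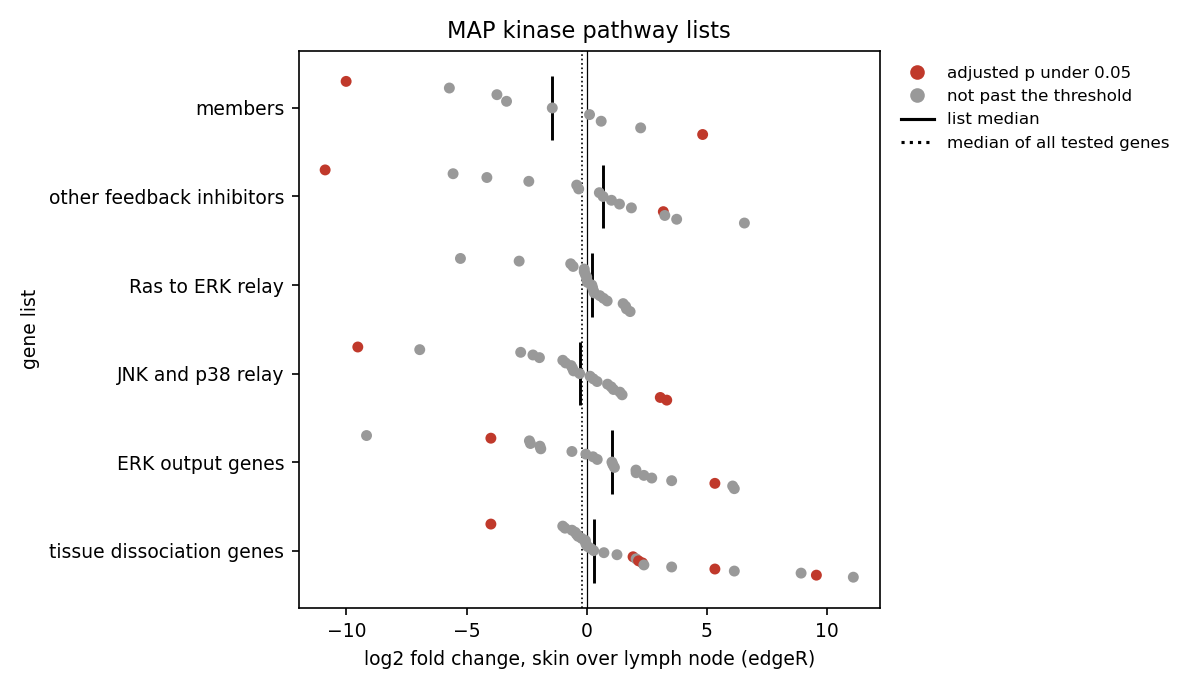
Log2 fold change, skin over lymph node, of each tested gene in the member list, 4 pathway lists and the dissociation list; red points passed an adjusted p of 0.05 in edgeR, black lines are list medians and the dotted line is the median of all tested genes (-0.21). The list from Ras to ERK holds no red point, and the list of ERK output genes has one on either side, Fos at 5.33 and Egr1 at -3.99.

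The genes with the profile most like Dusp1 over the 5 libraries, by the root mean square difference of centred log2 CPM, were Cps1, F13a1, Fam81a, Tff1 and Gzmb (0.29 to 0.44 on the log2 scale). F13a1, a coagulation factor gene known from macrophages, had 339 and 448 CPM in skin Tregs against 19.5, 23.3 and 18.6 CPM in lymph node Tregs, and Gzmb, the granzyme B gene of effector lymphocytes, had 1428 and 1759 CPM against 40.2 to 51.2 CPM. The 5 nearest to Spry1 were Zfp365, Nek4, Rpusd2, Snai3 and Rad9b (0.02 to 0.13), all with no count in either skin library, as Spry1 itself. All of these are nearest by the shape of the profile alone, as each gene was centred on its own mean. Cps1 had 1.59 and 3.39 CPM in skin and no count in lymph node, so its profile depends on the prior count.

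**Figure D5:**
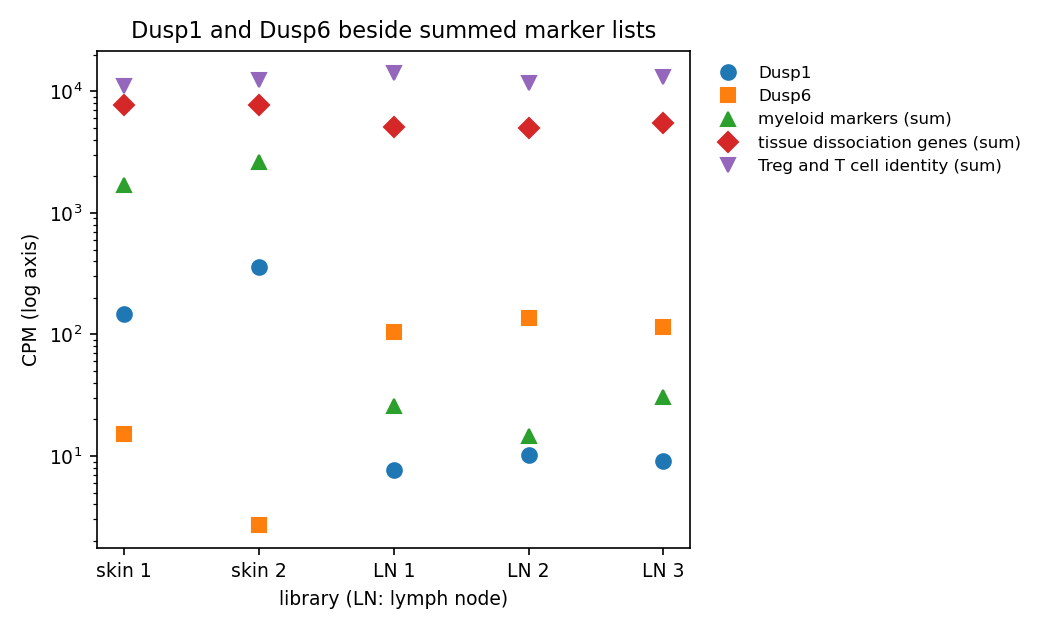
CPM on a log axis in each library for Dusp1, Dusp6 and the sums of myeloid markers, dissociation genes and Treg and T cell identity genes, skin at the left and lymph node (LN) at the right. Dusp1 and the myeloid sum are both highest in skin library 2 (361 and 2620 CPM), and Dusp6 is lowest there (2.69 CPM). The identity sum stays between 11169 and 14086 CPM, but its genes moved in both directions. Of the 10, 2 passed as higher in skin (Ctla4 and Ikzf2), 1 as lower (Cd5) and 7 did not pass. Of all tested genes, 2.4% were called higher and 5.3% lower by edgeR.

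The transcripts of the members also differed in a feature linked to messenger RNA decay. The AU-rich heptamer TATTTAT, a core of elements that destabilise immediate early transcripts, occurred 3 times in the 3′ untranslated region of Dusp1, 2 times each in those of Spry1 and Spry2 and once in that of Dusp2, in the longest coding transcript of each. The other 6 genes had none. With 4 of 10 genes (40.0%) holding at least 1 heptamer, against 29.4% of 10452 tested genes with an annotated region, the share among the members was somewhat above that of all genes; 3 genes (30.0%) held at least 2, against 10.3%. A set of 10 genes is small for such a share. The genes with a heptamer included the one that rose and the one that fell.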

How the data were processed

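Per the labels' protocols, RNA of frozen sorted cells was column-purified at a service laboratory, and a SMARTer kit for very small RNA amounts gave the cDNA libraries. Per the submitters' processing notes, the tools were HTSeq 0.6.1, TopHat2 2.0.12, Bowtie2 2.1.0.0, CASAVA 1.8.2 and SAMtools 0.1.19.0, with build mm10; options, annotation and strand setting were not given in those notes. The deposited table holds raw whole-number counts per gene symbol, and its header was read as shifted by 1 cell. Its 5 HTSeq summary rows entered neither library sizes nor tests; non-unique alignments were 64.5 to 72.0% of all counts, reads outside genes 8.35 to 14.0% and ambiguous ones 0.400 to 0.433%. Genes with near-identical copies may be undercounted.

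Skin was compared with lymph node in edgeR 4.0.16 (R 4.3.3) with filterByExpr (minimum count 10; 11437 genes kept), TMM scaling and the quasi-likelihood F test, Benjamini-Hochberg adjusted over all tested genes, threshold 0.05. The functions were tested on simulated data. SE was taken as the absolute log2 fold change over the square root of F, and CPM use TMM-scaled sizes; profiles use log2 CPM with a prior count of 2. A group without counts is bounded at 3 counts over the group, and ratios with few counts have exact 95% Poisson intervals; both cover counting error only. The smallest two-sided exact p of 2 against 3 libraries is 0.1. Alternatives were other scalings, filters, DESeq2 1.42.0, limma-voom (limma 3.58.1), the replicate number as a block and leaving out each library. Positions, exon lengths and 3′ untranslated regions come from GENCODE M21 (GRCm38, which is mm10), and promoters from RefSeq (GRCm38.p6). The members and lists were chosen with earlier results of these data known. Named genes are all members, up to 4 called genes of each pathway list by adjusted p (or its 2 most abundant where none passed), and the 5 genes closest in profile to the member of lowest adjusted p in each direction; others are marked in the text.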

Additional observations from a re-analysis of the deposited data

How the results depend on the processing

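The numbers in the titles shared by the groups (1 and 2) are not said to pair animals, and deviations of same-numbered libraries correlated at -0.02 and -0.02 over 11437 genes; with the replicate block edgeR called 21 genes of all tested (881 without it), 0 members higher, 0 lower and 1 gene of the pathway lists (11 without it), with 772 genes and 2 members at an unadjusted p under 0.05. Without a low-count filter the counts were 315 genes, 0 members lower and 6 list genes. With the stricter filter (50 counts in 2 libraries) they were 1425 and 17. DESeq2 called 3351 genes, 2 members higher, 4 lower and 34 list genes; limma-voom called 2231, 0, 4 and 25, with Dusp1 at an adjusted p of 0.0572. Leaving out each library in turn gave 0 to 6065 genes, 0 to 2 members higher, 0 to 5 lower and 0 to 62 list genes: each fit without a lymph node library called 0 (2361 to 2484 genes, 4 to 5 of them members, at an unadjusted p under 0.05), and those without skin library 1 or 2 called 6065 and 4904, with the lone skin library assumed to vary like the others. The sign turned for 2 members far from the threshold. Dusp2 was at -0.053 without skin library 1 (range of the fits that leave out 1 library, -0.053 to 1.04), and Dusp7 at -0.024 with upper-quartile factors, -0.41 without skin library 1 and -0.16 without lymph node library 2 (range -0.41 to 0.52). Upper-quartile scaling moved the log2 fold changes of all tested genes by a median of -0.14. The signs of Dusp1, Dusp4, Dusp5, Dusp6, Dusp10, Dusp16 and Spry1 were the same under all 13 alternatives, with Dusp1 between 4.02 and 5.32 and Dusp6 between -5.47 and -2.98. With the longest transcript in place of union exon length, the mean share of Dusp1 in the summed skin level was 55.8%, against 51.6%. The causes of these changes were not tested.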
